A study of Mus musculus with 20 samples.

Results

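The genes described here are 9 chemokines and chemokine receptors that guide immune cells into the skin, picked by symbol from the 22090 genes of the deposited count table. There are 6 ligands (Ccl27a, Ccl27b, Ccl20, Ccl22, Ccl17 and Cxcl14) and 3 receptors (Ccr10, Ccr6 and Ccr4), and all 9 symbols were found. Because Ccl27a and Ccl27b are near-identical copies, their sum is given as well. The levels of these genes in the same tissues were known when they were chosen. Their differences between groups are therefore a description, given with standard errors and without p-values.

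RNA-seq was performed on 20 back skin tissues of female SKH-1 mice. This hairless strain is prone to skin tumors when irradiated with ultraviolet light. By the paper's methods the mice were 7 months old when divided into groups. Tissues were taken after the weeks of irradiation, when the mice were older. The groups were normal skin (NS, n = 8), actinic keratosis (AK, n = 8), a precancerous lesion, and cutaneous squamous cell carcinoma (cSCC, n = 4). All AK and cSCC came from mice exposed to ultraviolet radiation, while NS pooled skin from unexposed mice and lesion-free skin from exposed mice. By the labels each of the 2 groups held 4 mice and each exposed mouse gave 1 normal and 3 lesion tissues. The 8 AK thus stood for 4 mice, and tissues of 1 mouse were treated as independent. That could make p-values too small where a group holds several tissues of 1 mouse, and too large where compared groups share mice.

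Chemokines are small secreted proteins that attract cells carrying a matching receptor. Ccl27 is made by keratinocytes of the epidermis and is bound by Ccr10 on skin-homing T cells. Ccl20, made by epithelial cells, is bound by Ccr6 on Langerhans cell precursors and on T cells that make interleukin 17. Ccl17 and Ccl22, made mainly by dendritic cells, Langerhans cells among them, share the receptor Ccr4 of skin-homing and regulatory T cells. Cxcl14 is a chemokine of normal epithelia that attracts cells of the monocyte and dendritic lineages, and its receptor is less settled.

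Total counts ranged from 1624325 to 6295575 in NS, from 867219 to 14055206 in AK and from 775750 to 7095102 in cSCC. Levels are in CPM, the counts relative to library size after TMM scaling. The detection floor was taken as 3 counts, which before that scaling is 3.87 CPM for the shallowest sample (cSCC replicate 20) and 0.213 CPM for the deepest (AK replicate 10). Intervals and floors cover counting error only. The cSCC samples differed from each other in tissue content. In cSCC replicate 21 the 8 heart muscle markers summed to 58246 CPM against at most 161.56 CPM in any other sample. In cSCC replicate 20 the 7 lung markers summed to 35921 CPM against at most 59.3 CPM elsewhere. In cSCC replicate 18 haemoglobin genes took 46.8% of the counts, against 0.0917% to 5.45% in NS and 1.00% to 14.3% in AK. The epidermal markers Krt5 and Krt14 were present in all groups, and the 8 basal keratinocyte markers summed to 5506 to 16441 CPM in NS, 9471 to 14529 CPM in AK and 3927 to 18576 CPM in cSCC. In bulk tissue, fewer cells of a type and less RNA per cell cannot be told apart.

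The Ccl27 genes were described first, since their sequences decide how far their counts can be separated. Ccl27a lies on chromosome 4 (GRCm38, GENCODE M21, chr4:41769467-41774247, reverse strand) and Ccl27b on the same chromosome (chr4:42655251-42656005, forward strand). Each has a coding sequence of 360 bases, and the copies differed at 3 of them, an identity of 99.167%. Counted from the first coding base, with the base of Ccl27a first, the differences were C177T, G297A and A343C. A further gene, Gm13306 (chr4:42153436-42158839, forward strand), had the same coding sequence as Ccl27b, with an identity of 100% over 360 bases. Gm13306 was added after its counts were seen. The coding bases 151 to 360 are shown because they hold every difference, which is in capitals.
Ccl27a: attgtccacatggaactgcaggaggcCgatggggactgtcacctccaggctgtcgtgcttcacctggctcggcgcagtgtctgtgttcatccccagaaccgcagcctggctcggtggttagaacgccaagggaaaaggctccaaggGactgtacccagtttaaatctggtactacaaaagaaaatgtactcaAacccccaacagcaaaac
Ccl27b: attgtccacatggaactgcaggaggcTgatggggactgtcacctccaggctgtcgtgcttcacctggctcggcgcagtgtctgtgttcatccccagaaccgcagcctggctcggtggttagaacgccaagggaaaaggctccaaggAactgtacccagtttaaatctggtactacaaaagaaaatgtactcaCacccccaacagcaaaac
A read within the coding sequence that covers none of the differing bases fits all copies equally. How the counting treated such reads is not given in the sources used here. Exon bases outside the coding sequence were not compared, and the annotated exons hold 1547 bases for Ccl27a, 425 for Ccl27b and 653 for Gm13306. The separate values of the copies are thus uncertain, and the sum is the safer measure.

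The 3 copies had similar counts in nearly every sample. In NS replicate 5, for example, 1737 counts were assigned to Ccl27a, 2038 to Ccl27b and 1903 to Gm13306. Ccl27a took 42.7% to 50.1% of the counts of the Ccl27a and Ccl27b pair in NS and 36.6% to 46.2% in AK. The cSCC samples had few counts to divide. The share was 43.8% of 162 counts in cSCC replicate 18 and 42.1% of 19 counts in cSCC replicate 20, and all 4 counts of cSCC replicate 19 were assigned to Ccl27b. In cSCC replicate 21 the share was 94.7% (18 of 19 counts, 95% Wilson interval 75.4% to 99.1%), above that of every NS and AK sample. There, Il11ra1, whose end overlaps that of Ccl27a on the opposite strand, had its highest level of the 20 samples, 85.8 CPM, against 11.4 to 66.5 CPM in NS and AK. The overlap is 8 bases long. With Il11ra1 at 66.5 CPM in NS replicate 4, 63.2 CPM in NS replicate 2 and 58.0 CPM in cSCC replicate 20, the share was 48.6%, 42.9% and 42.1%. The part of Il11ra1 in the share was not tested. Without a stated strand setting, reads of overlapping genes cannot be told apart.

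**Figure D1:**
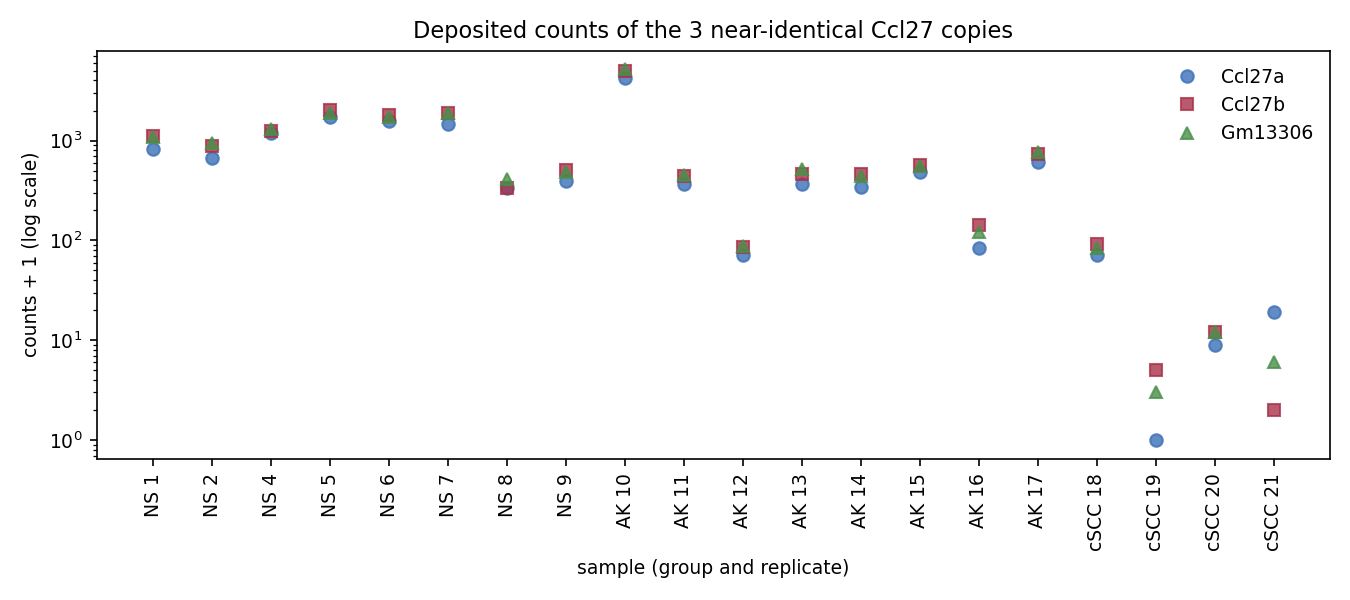
Deposited counts plus 1 (log axis) of Ccl27a, Ccl27b and Gm13306 in each of the 20 samples, named by group and replicate. The 3 symbols lie close together in NS and AK, reach 5174 counts in AK replicate 10, and part in cSCC replicate 21, where Ccl27a has 18 counts, Gm13306 has 5 and Ccl27b has 1.

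Ccl27 was the most abundant of these ligands in NS. The sum of Ccl27a and Ccl27b had its lowest value in NS replicate 9 at 193 CPM, a median of 494 CPM and its highest value in NS replicate 6 at 1902 CPM. In AK the sum ranged from 134 to 689 CPM with a median of 193 CPM, and AK replicate 10 was the highest. In cSCC it was 113, 1.76, 21.6 and 3.14 CPM in replicates 18 to 21. The cSCC range lay below both other groups, while the ranges of NS and AK overlapped.

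Per length, Ccl27b reached a median of 659 CPM per kilobase of exon in NS, Ccl27a 139, Ccl20 22.9, Ccl22 7.10, Cxcl14 6.97 and Ccl17 4.44. The copies of Ccl27 had similar counts in NS, 9812 for Ccl27b and 8202 for Ccl27a, so the gap between them per length came from their annotated exon lengths of 425 and 1547 bases. In cSCC the order was different, with Cxcl14 first at a median of 31.2 CPM per kilobase, ahead of Ccl27b at 16.8, Ccl27a at 3.90, Ccl20 at 3.02, Ccl17 at 1.28 and Ccl22 at 0.273. In both groups every pair of neighbours in the order had overlapping ranges once CPM were divided by length, so ranges alone set no neighbours apart. The genes were measured in the same samples, and their order within each sample was not compared.

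Ccl20 (chr1:83116766-83119167, forward strand) fell into separate levels among the NS samples. NS replicates 1, 2 and 9 had 214, 194 and 192 CPM, whereas the 5 other NS samples had 15.2 to 33.3 CPM. The AK samples ranged from 19.6 to 61.8 CPM with a median of 32.0 CPM, next to the NS median of 32.5 CPM. In cSCC replicates 18 to 21, Ccl20 was 6.95, 1.76, 6.83 and 0 CPM, from 10, 4, 6 and 0 counts. All cSCC samples were thus below every other sample, and the mean of NS, 90.4 ± 91.2 CPM (SD, n = 8), was set by 3 samples.

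Ccl22 (chr8:94745590-94751699, forward strand) was low but present in all NS and AK samples. It ranged from 11.7 to 30.6 CPM in NS, with a median of 15.7 CPM, and from 3.60 to 17.7 CPM in AK, with a median of 8.72 CPM. In cSCC it was 2.78, 0.879, 0 and 0.331 CPM, from 4, 2, 0 and 2 counts. The cSCC values lay below all others, and AK replicate 10 was the only AK sample above the NS median.

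Ccl17 (chr8:94810453-94812036, forward strand), which lies near Ccl22 on chromosome 8, had few counts. It ranged from 0.176 to 11.3 CPM in NS, with a median of 2.28 CPM, and from 0 to 4.91 CPM in AK, with a median of 4.00 CPM. In cSCC it was 1.39, 1.32, 0 and 0 CPM, from 5 counts in all. The ranges of all groups overlapped, and NS and AK had no firm order, since the AK median was the higher while the mean was 3.84 ± 4.03 CPM (SD, n = 8) in NS and 3.34 ± 1.88 CPM (n = 8) in AK. Pooled over libraries, Ccl17 was at 0.121 times its NS level in cSCC (95% counting interval 0.0388 to 0.291) and at 0.134 times its AK level (0.0427 to 0.319). These ratios depended on single libraries. NS replicate 7 held 71 of the 126 NS counts, and without it the ratio to NS was 0.225 (0.0702 to 0.557). The ratios to NS and AK were 0.281 and 0.309 without cSCC replicate 21, and 0.0618 and 0.0680 without cSCC replicate 19.

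Cxcl14 (chr13:56288643-56296551, reverse strand) was the only one of the 6 ligands with its highest levels in cSCC. It ranged from 3.40 to 23.8 CPM in NS, with a median of 12.7 CPM, and from 3.51 to 16.7 CPM in AK, with a median of 7.31 CPM. In cSCC replicates 18 to 21 it was 30.6, 85.2, 38.7 and 75.3 CPM, from 44, 194, 34 and 455 counts. Every cSCC sample was above every NS and AK sample. In replicates 18 and 19 the heart muscle markers summed to 70.2 and 103.7 CPM, against at most 78.2 CPM in NS and AK, and the lung markers to 15.3 and 15.8 CPM. The part of other tissues in the level of Cxcl14 was not tested.

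The bases before the starts of these genes were searched for 2 short motifs, on both strands, in RefSeq promoter windows of 250 bases (GRCm38.p6), and 8 of the 9 genes had a window, Ccr10 being the exception. The NF-kB type motif reads GGG, any 2 bases, then TTTCC, and is bound by a factor of inflammatory signalling. It is in 1.412% of the 32851 windows of all genes. The STAT6 type motif reads TTC, any 4 bases, then GAA, and is bound by a factor of interleukin 4 and 13 signalling. It is in 5.854% of windows. Among the genes described here, the first was found for Ccl20, 71 to 80 bases before the start and on the strand opposite to the printed one, and the second for Ccl17, 145 to 154 bases before the start, while no window held both. These windows are shown because they hold the matches, which are in capitals. They are chr1:83116516-83116765 for Ccl20 and chr8:94810203-94810452 for Ccl17, both on the forward strand.
Ccl20: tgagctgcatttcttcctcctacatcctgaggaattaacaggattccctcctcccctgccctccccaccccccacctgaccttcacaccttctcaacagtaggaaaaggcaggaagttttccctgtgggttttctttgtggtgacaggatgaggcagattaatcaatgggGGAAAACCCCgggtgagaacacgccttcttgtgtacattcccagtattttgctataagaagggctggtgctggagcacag
Ccl17: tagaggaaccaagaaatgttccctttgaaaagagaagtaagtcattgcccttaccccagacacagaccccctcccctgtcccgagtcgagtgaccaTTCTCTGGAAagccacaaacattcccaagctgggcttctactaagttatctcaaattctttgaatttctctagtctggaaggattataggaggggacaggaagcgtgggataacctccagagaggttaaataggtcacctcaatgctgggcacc
A match is a run of letters and not a measured binding site.

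**Figure D2:**
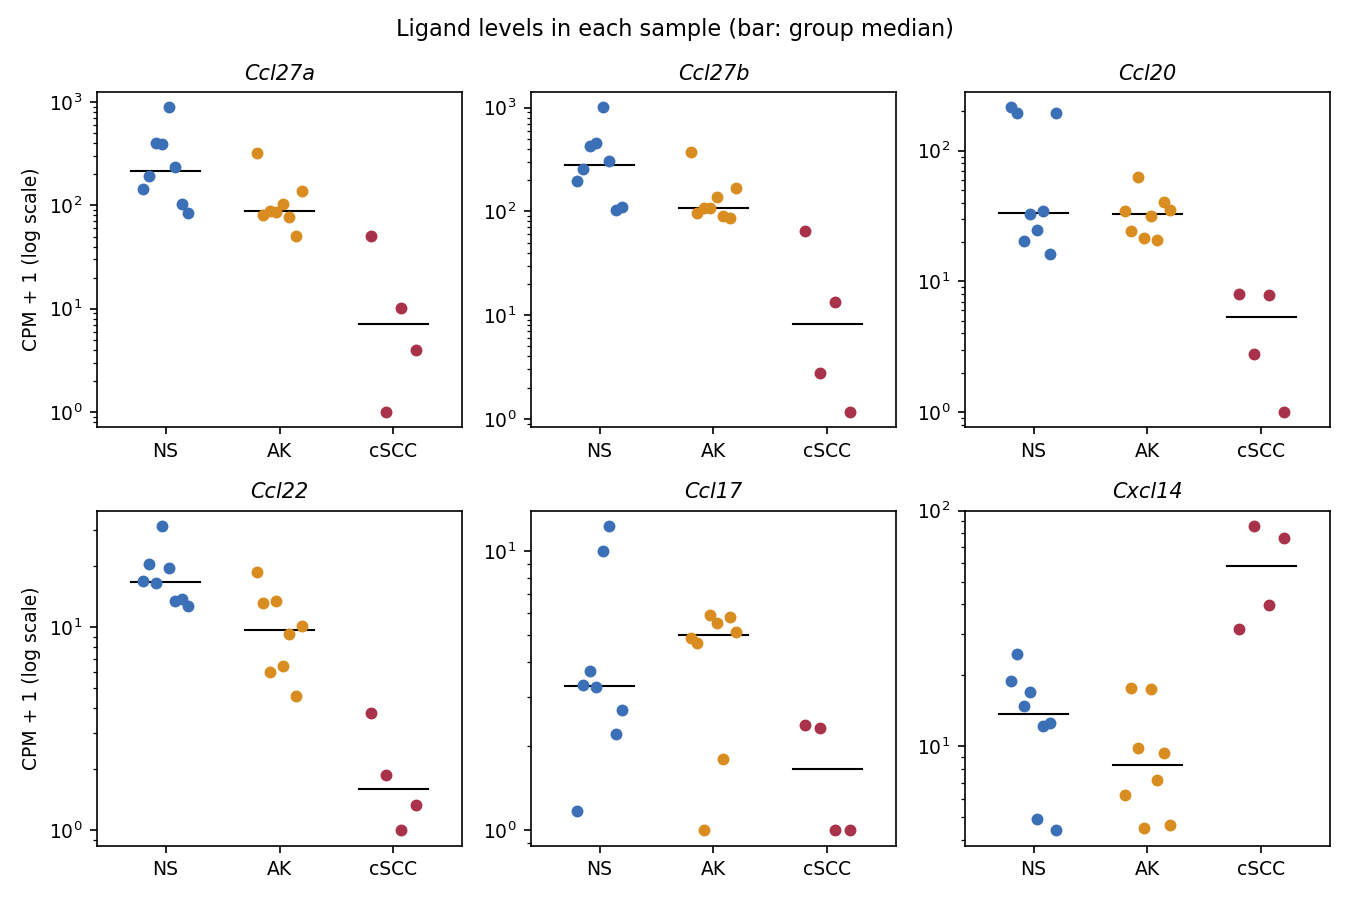
CPM plus 1 (log axis) of the 6 ligands in each NS, AK and cSCC sample, with a bar at the group median. Ccl27a, Ccl27b, Ccl20 and Ccl22 lie lowest in cSCC, Cxcl14 lies highest there, and 3 NS samples stand above the rest for Ccl20.

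The receptors were close to the detection limit. Ccr6 (chr17:8236043-8257141, forward strand), the receptor of Ccl20, had 84 counts in NS, where 7 of 8 samples had at least 1, and 53 in AK, where 5 of 8 did. In cSCC a single count was found, in replicate 20. The pooled level in cSCC was 0.0364 times that in NS (95% counting interval 9.11e-04 to 0.209) and 0.0686 times that in AK (0.00170 to 0.399). Without cSCC replicate 21, the deepest of its group, these ratios were 0.0844 and 0.159. Without cSCC replicate 20 no count was left, and the level was at least 8.40-fold lower than in NS and at least 4.46-fold lower than in AK, from a floor of 3 counts over the group.

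Ccr4 (chr9:114490316-114504916, reverse strand), the receptor of Ccl17 and Ccl22, had 37 counts in 6 of 8 NS samples and 25 counts in 3 of 8 AK samples. AK replicate 10, the deepest library, held 22 of the 25. In cSCC the count was 0, and with a floor of 3 counts over the group (0.282 CPM) the pooled level was at least 4.03-fold lower than in NS and at least 2.29-fold lower than in AK. The bound against AK rested on AK replicate 10 and on cSCC replicate 21, as the AK level was under the floor without either, at 0.119 CPM in the first case. Against NS the bound was 2.64-fold without NS replicate 1 and 1.74-fold without cSCC replicate 21. Ccr10 (chr11:101172997-101175443, reverse strand), the receptor of Ccl27, had 8 counts in NS, 7 of them in replicate 2, then 7 counts in AK and 0 in cSCC. Its pooled levels of 0.246 CPM in NS and 0.181 CPM in AK were under the cSCC floor, so a lower level in cSCC was not detectable at this depth.

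**Figure D3:**
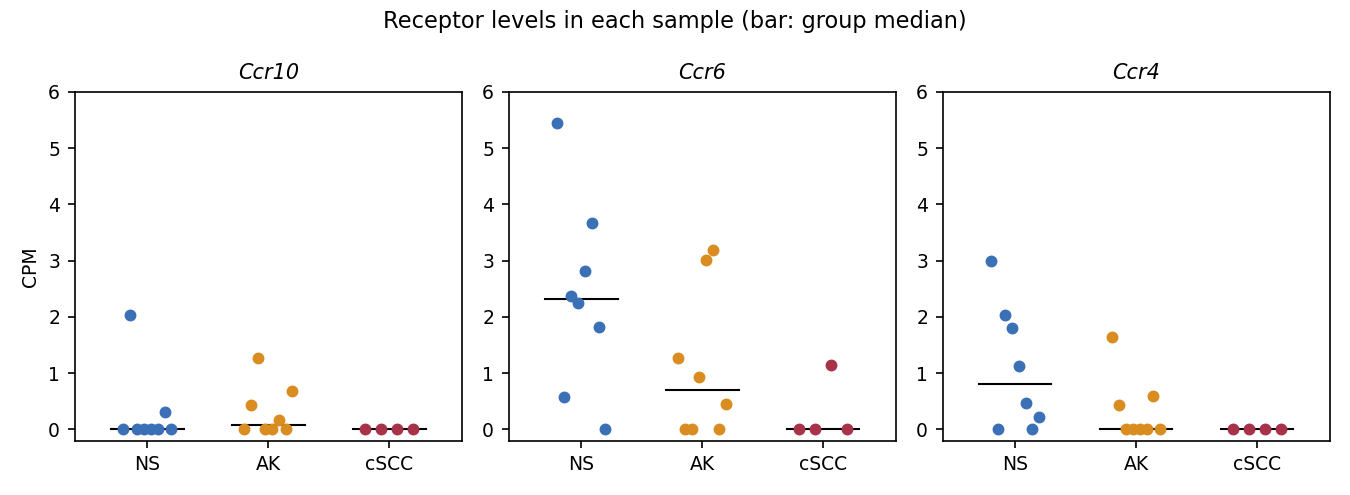
CPM (linear axis) of Ccr10, Ccr6 and Ccr4 in each NS, AK and cSCC sample, with a bar at the group median. Ccr6 reaches 5.46 CPM in NS, and the cSCC samples are at 0 except for 1.14 CPM of Ccr6 in replicate 20.

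AK and NS were compared first. Of the 9 genes, the 6 ligands had enough counts to be tested with edgeR's quasi-likelihood test and the 3 receptors had not. A gene was called a differentially expressed gene (DEG) at a Benjamini-Hochberg adjusted p-value under 0.05 with a fold change above 1.5 or below 0.67. None of the 6 ligands was a DEG, against 4.64% of the 11677 genes tested. With an unadjusted p-value 4 of them passed, beside 1798 of all genes tested. DESeq2 called 3 of them, beside 1049 of all genes tested. All 6 fold changes were below 0 on the log2 scale, with a median of -1.09 against -0.04 for all genes tested. Ccl27a and Ccl27b, whose counts cannot be separated with certainty, enter these counts and the median as 2 genes. Nothing is read from the counts or the median, because the same levels chose the genes. The sign of Ccl17 rested on single libraries, as it was 0.42 without NS replicate 7, 0.12 without NS replicate 6 and 0.03 without AK replicate 15. The change was -1.36 ± 0.43 (SE) for the Ccl27 sum, -1.53 ± 0.54 for Ccl20, -0.85 ± 0.29 for Ccl22, -0.14 ± 0.60 for Ccl17 and -0.60 ± 0.42 for Cxcl14. That of Ccl20 rested on NS replicates 1, 2 and 9, at 192 to 214 CPM. The other NS samples, at 15.2 to 33.3 CPM, were not above the AK samples, at 19.6 to 61.8 CPM. Single libraries decided the calls. Without AK replicate 10, Ccl22, Ccl27a and Ccl27b were called, without NS replicate 8 Ccl20, Ccl27a and Ccl27b were called, and without NS replicate 9 Ccl27a and Ccl27b were called.

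In cSCC vs. NS, 5 ligands were tested, since Ccl17 and the receptors had too few counts, and all 5 were DEGs. Lower in cSCC were 4 of them, beside 7.65% of the 12097 genes tested, and their ranges did not overlap with NS, beside 5.73% of genes. Higher in cSCC was Cxcl14, beside 11.7% of genes called in that direction and 2.7% without overlap. Nothing is read from these counts, because the same levels chose the genes. The log2 fold change was -4.24 ± 1.09 (SE) for the Ccl27 sum, -4.79 ± 1.20 for Ccl20, -4.13 ± 0.63 for Ccl22 and 2.23 ± 0.45 for Cxcl14. When cSCC replicates 20 and 21 were both left out, 2 calls remained of the 5, Ccl22 at -3.28 and Cxcl14 at 2.21. The Ccl27 sum was then at -3.54 and Ccl20 at -4.44, below 0 but not called with 2 cSCC samples. Without cSCC replicate 18, the sample richest in blood, the Ccl27 sum moved to -6.39, and without cSCC replicate 20 Ccr6 was tested and called.

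In cSCC vs. AK, the same cSCC samples enter again, so the values stand beside those above without being a separate line of support. Of 6 ligands tested, 5 were DEGs. Lower in cSCC were Ccl27a, Ccl27b, Ccl20 and Ccl22, beside 8.34% of the 12032 genes tested, and all but Ccl27a had ranges below AK, beside 6.84% of genes. Cxcl14 was higher, beside 16% of genes called and 3.33% without overlap. The log2 fold change was -2.87 ± 0.88 (SE) for the Ccl27 sum, -3.25 ± 0.77 for Ccl20, -3.20 ± 0.73 for Ccl22, -2.32 ± 1.00 for Ccl17, which edgeR did not call and DESeq2 did, and 2.88 ± 0.46 for Cxcl14. Without cSCC replicates 20 and 21, the calls of Ccl20 at -2.91 and Cxcl14 at 2.84 remained, and those of Ccl22, Ccl27a and Ccl27b did not. The calls of the separate Ccl27 copies were easily lost. That of Ccl27b ended without any 1 of AK replicates 10, 12, 13, 14 and 17 and cSCC replicates 19 and 20, and that of Ccl27a without cSCC replicate 20 or 21. The Ccl27 sum lost its call without cSCC replicate 20, at -2.73, and kept it without each of the other samples. Without cSCC replicate 18 the sum was -5.11.

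**Figure D4:**
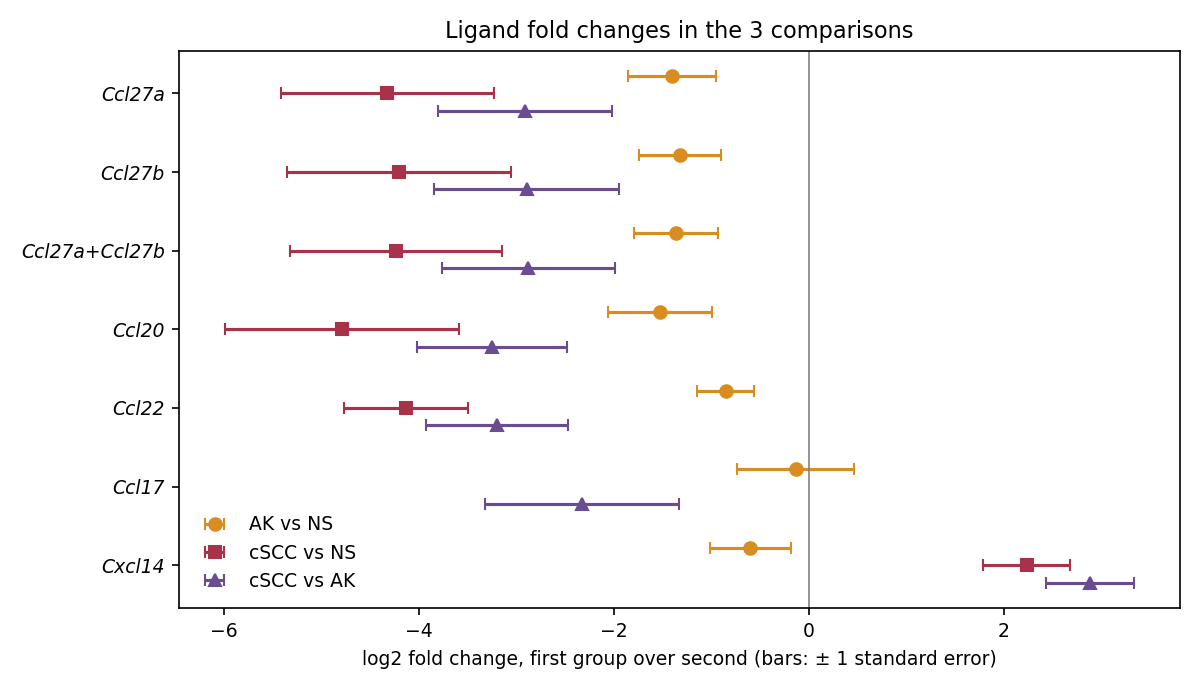
Log2 fold change of each ligand and of the Ccl27 sum in the 3 pairwise comparisons of groups, with bars of 1 standard error. All ligands but Cxcl14 lie below 0 in the comparisons with cSCC that could be fitted, and Ccl17 has no value for cSCC vs. NS.

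The scaling moved the centre of all genes. With library size alone in place of TMM factors, the median log2 fold change of all genes moved from -0.04 to -0.13 in AK vs. NS, from 0.14 to -0.17 in cSCC vs. NS and from 0.17 to -0.09 in cSCC vs. AK. The centre thus turned from above to below 0 in both comparisons with cSCC, and changes are best read relative to it. The 6 ligands kept their signs in every comparison in which they were tested, and the Ccl27 sum was -1.48, -5.06 and -3.58 in the same order.

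Other genes of the chemokine system were compared with adjusted p-values. Their lists, too, were chosen with earlier results of these data known, which limits what those p-values can show. The genes were 32 other chemokine ligands, 20 other chemokine receptors, 13 genes of skin-homing adhesion and 16 cytokines that act upstream. In AK vs. NS, 4 of 26 ligands tested rose and none fell, none of the 11 receptors or 9 adhesion genes was a DEG, and 1 of 6 cytokines rose. In cSCC vs. NS, 6 of 27 ligands, 6 of 15 receptors, 3 of 9 adhesion genes and 2 of 6 cytokines rose, while 1 adhesion gene and 1 cytokine fell. In cSCC vs. AK, 5 of 27 ligands, 5 of 14 receptors, 1 of 9 adhesion genes and 2 of 8 cytokines rose, and 2 ligands, 1 receptor, 1 adhesion gene and 1 cytokine fell. Over all these lists the count was 5 higher and 0 lower of 52 genes, 17 higher and 2 lower of 57, and 13 higher and 5 lower of 58. Of all genes tested, 4.64% were DEGs in either direction in AK vs. NS. In cSCC vs. NS 11.7% were higher and 7.65% lower, and in cSCC vs. AK 16% and 8.34%. The 5 lower of 58 in cSCC vs. AK were near that share, and nothing is read from their number.

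The genes that rose in AK were Tslp, a keratinocyte cytokine that acts on dendritic cells, the interferon-induced T cell attractants Cxcl9 and Cxcl10, the eosinophil attractant Ccl11 and the macrophage product Ccl3. Tslp was 14.1 ± 3.93 CPM (SD, n = 8) in NS and 105 ± 58.4 CPM (n = 8) in AK, higher in 8 of 8 AK samples than in any NS sample (log2 fold change 2.87 ± 0.32 SE, edgeR adjusted p = 3.08e-04). The other changes were smaller against their spread, with edgeR adjusted p of 0.0297 for Ccl3, 0.0278 for Cxcl9, 0.0445 for Cxcl10 and 0.0326 for Ccl11, and their ranges overlapped with NS. This count depended on single libraries, since leaving out 1 sample gave between 1 and 10 DEGs of these lists, with the lowest count without NS replicate 4 or AK replicate 13 and the highest without NS replicate 9.

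Neutrophil attractants were among the genes with the largest increases in cSCC. Cxcl1 (log2 fold change 5.25 ± 0.92 SE, edgeR adjusted p = 0.00283), Cxcl2 (5.19 ± 0.55, 2.97e-04), Cxcl3 (5.05 ± 0.79, 0.00167) and Cxcl5 (5.06 ± 1.26, 0.0142) rose against NS, together with Il1b (5.24 ± 0.55, 2.97e-04), a cytokine of inflammation. Cxcl1 was uneven, at 15.3, 578, 100.12 and 10.3 CPM in cSCC replicates 18 to 21, and its change was 3.18 without replicate 19 (edgeR adjusted p = 0.0172). Without replicate 20, the change of Cxcl5 was 3.88 and no longer called (edgeR adjusted p = 0.0564). Cxcr1, a receptor for some of these ligands, rose by 3.33 ± 1.05 (edgeR adjusted p = 0.0384), and Ccrl2, a chemerin-binding receptor, by 3.46 ± 0.41 (4.14e-04). The macrophage products Ccl3 and Ccl4 rose by 3.53 ± 0.80 and 3.92 ± 0.79 (edgeR adjusted p = 0.00920 and 0.00572). Tslp in cSCC was uneven, at 1202, 5.27, 100.12 and 2.32 CPM in replicates 18 to 21, and its rise over NS (4.56 ± 1.02, edgeR adjusted p = 0.00837) fell to 1.30 and lost its call without replicate 18.

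Against AK, Ccl1, the ligand of Ccr8 on skin T cells, fell by 3.37 ± 1.06 (edgeR adjusted p = 0.0326), with AK at 8.71 ± 5.56 CPM and cSCC at 1.31 ± 2.18 CPM. Against NS the same gene was at -3.13 ± 1.17 (edgeR adjusted p = 0.0743). Ccr8 itself was under 3 CPM in every sample and was not tested. Ccl28, the other ligand of Ccr10, had at most 3 counts in any sample and was not tested. Ccl8, a ligand of Ccr8 in mice, was the most abundant of the named chemokines, with 3162 ± 2527 CPM (SD, n = 8) in NS, 7197 ± 4170 CPM (n = 8) in AK and 2949 ± 3055 CPM (n = 4) in cSCC, and was not a DEG in any comparison. Selplg, whose product carries the skin-homing selectin ligand, was not a DEG either. Nor was Ccr7, which had too few counts to be tested in AK vs. NS. Il17a had too few counts to be tested in any comparison.

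Several genes of these lists fell in cSCC, and those outside the rule for named genes were named after their values were seen. Itgae, the integrin chain that holds T cells in the epidermis, was 18.8 ± 6.40 CPM (SD, n = 8) in NS, 16.8 ± 7.66 CPM (n = 8) in AK and 3.39 ± 1.44 CPM (n = 4) in cSCC. Its log2 fold change was -2.51 ± 0.47 (SE) against NS and -2.31 ± 0.49 against AK (edgeR adjusted p = 0.00407 and 0.00588), and all 4 cSCC samples lay below the others. Il1f8, an epithelial interleukin of the IL-1 family, fell against both, at -2.50 ± 0.65 for NS and -2.54 ± 0.60 for AK (edgeR adjusted p = 0.0175 and 0.00931), and neither call held without cSCC replicates 20 and 21. Ccl7, a monocyte attractant, and Ackr1, a chemokine-binding receptor of blood vessels and red cells, fell against AK, at -1.83 ± 0.57 and -1.95 ± 0.59 (edgeR adjusted p = 0.0318 and 0.0280), and lost their calls without the same pair of samples.

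The cells that make or follow these ligands were examined through marker genes in the same samples. Of 10 markers of suprabasal keratinocytes, the differentiated epidermal layer, 8 fell in cSCC vs. NS, 7 fell in cSCC vs. AK and 2 (Lor and Flg2) fell in AK vs. NS. Their summed level was 13533 to 38440 CPM in NS, 8856 to 29091 CPM in AK and 858 to 11403 CPM in cSCC, where replicate 18 was the highest, as it was for the Ccl27 sum. Lor, a protein of the cornified layer, was 596 ± 238 CPM (SD, n = 8) in NS and 7.51 ± 8.07 CPM (n = 4) in cSCC (log2 fold change -6.35 ± 0.78 SE, edgeR adjusted p = 5.58e-04). Of the 8 basal markers, 1 (Dst) fell in each comparison with cSCC and none was a DEG in AK vs. NS. The part of these markers' decrease in the Ccl27 and Ccl20 levels was not tested.

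Langerhans cells, the dendritic cells of the epidermis, were followed by Cd207. Its log2 fold change was -4.96 ± 0.89 (SE) in cSCC vs. NS and -4.21 ± 0.98 in cSCC vs. AK (edgeR adjusted p = 0.00321 and 0.00878), and was at 9.03, 2.64, 0 and 0 CPM in cSCC replicates 18 to 21. Of the 13 Langerhans and dendritic cell markers, 11 were tested in each comparison with cSCC, of which Cd207 fell, Fscn1 and Cd74 rose and 8 were not DEGs. The rises were not seen in cSCC replicate 18, with Cd74 at 66.7 CPM, below every NS sample, and Fscn1 at 3.47 CPM, within the NS range. None of the 10 markers tested in AK vs. NS was a DEG. The 13 markers summed to 1370 to 2816 CPM in NS, 976 to 3122 CPM in AK and 657 to 2622 CPM in cSCC. The part of Langerhans cells in the level of Ccl22 was not tested.

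T cell markers were sparse. The 11 T cell genes in the table summed to 71.3 to 236 CPM in NS, 44.3 to 246 CPM in AK and 18.9 to 71.7 CPM in cSCC. Of 8 tested, Cd3g and Cd247, parts of the T cell receptor complex, fell in cSCC vs. NS, at -3.60 ± 0.70 and -3.91 ± 0.73 (edgeR adjusted p = 0.00466 and 0.00387). In cSCC vs. AK, Cd3g was the 1 DEG of 9 tested (-2.93 ± 0.67, edgeR adjusted p = 0.00824), and in AK vs. NS it was Cd247 (-1.54 ± 0.44, edgeR adjusted p = 0.0487). Of 7 regulatory T cell markers, 5 were tested and Ikzf2 fell in both comparisons with cSCC, while Foxp3 was at 4.31 CPM or less in all samples. Among the 4 cSCC samples, Ccr4 and Ccr10 had no counts and Ccr6 had 1, and the part of T cell content in the receptor levels was not tested.

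No fibroblast marker of 7 was a DEG in cSCC vs. NS or AK vs. NS, and Col1a1 rose in cSCC vs. AK (1.23 ± 0.43, edgeR adjusted p = 0.0485). Of 7 macrophage markers, C1qa rose in both comparisons with cSCC (1.73 ± 0.53 and 2.77 ± 0.47, edgeR adjusted p = 0.0341 and 0.00248). Of the B and plasma cell list at most 3 genes could be tested, of the list for T cells that make interleukin 17 only 1, and none was a DEG. In cSCC vs. NS all tested markers of heart muscle (5), lung (3) and blood (5) rose, and in cSCC vs. AK 6 of 6, 2 of 3 and 4 of 5 did. The lung markers were high in replicate 20 alone, at 35921 CPM against 15.3, 15.8 and 11.1 CPM in replicates 18, 19 and 21. Heart muscle markers summed to 58246 CPM in replicate 21, against 70.2, 103.7 and 161.56 CPM in replicates 18 to 20.

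Whether a ligand varied with its receptor among samples of 1 group was tested in NS and in AK, for the Ccl27 sum with Ccr10, Ccl20 with Ccr6, Ccl22 and Ccl17 with Ccr4, and Ccl17 with Ccl22, on log2(CPM + 1). None of the 10 relations passed the exact permutation test, with adjusted p from 0.848 to 0.963 for Pearson's r and of 0.977 for Spearman's rho (two-sided, n = 8 each). The largest was Ccl20 with Ccr6 in AK (r = -0.51, exact p = 0.195, and Spearman's rho = -0.63, exact p = 0.104), and r was -0.06 once the 2 most extreme samples of Ccl20 were left out. In NS the same pair had r = -0.35 (exact p = 0.393) and rho = 0.10, and r = -0.83 after leaving out its 2 most extreme samples. With receptors at 0 in up to 6 of 8 samples, relations with such receptors could not be shown at this depth. That limit does not cover Ccl17 with Ccl22, at r = -0.02 in NS (exact p = 0.963) and 0.26 in AK (exact p = 0.533). It covers Ccl20 with Ccr6 in NS less, where Ccr6 was at 0 in 1 sample.

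The genes whose levels followed each ligand most closely over all 20 samples were ranked by Pearson's r of log2(CPM + 1) among 8982 genes with a mean of at least 10 CPM. The samples share their group differences and their libraries, so r after removing group means is given beside it, as a description. For the Ccl27 sum, Gm13306 was first (r = 0.998, 0.995 within groups), followed by Clca1 (0.975, 0.918), Clca2 (0.972, 0.906), Clca4 (0.971, 0.912) and Capns2 (0.964, 0.901). For Ccl20 these were Sprr4 (0.942, 0.860), a cornified envelope gene, Cst6 (0.923, 0.802), Cstb (0.912, 0.844), Slc15a1 (0.902, 0.723) and Adh7 (0.902, 0.746). The NS samples with high Ccl20 had the highest Sprr4 of all 20 samples, 364, 493 and 478 CPM in replicates 1, 2 and 9, against at most 95.5 CPM elsewhere.

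For Ccl22 the closest gene was Cd207, the Langerhans cell marker, at r = 0.962 and at 0.848 within groups, and Acer1 (0.949, 0.759), Ano9 (0.946, 0.691) and Ahnak2 (0.946, 0.666) were also among the 5 closest. AK replicate 16, lowest of the AK samples in Ccl22, was also lowest of them in Cd207 at 6.59 CPM, and AK replicate 10 was highest in both, with Cd207 at 139 CPM. For Cxcl14 the closest were Cd151 (0.878, 0.621), Pdlim7 (0.877, 0.754), Acot7 (0.871, 0.697), Ppp4c (0.858, 0.615) and Cotl1 (0.858, 0.582). Over the 20 samples these values of r were lower than those listed for the 3 other ligands, which did not hold for all values within groups.

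**Figure D5:**
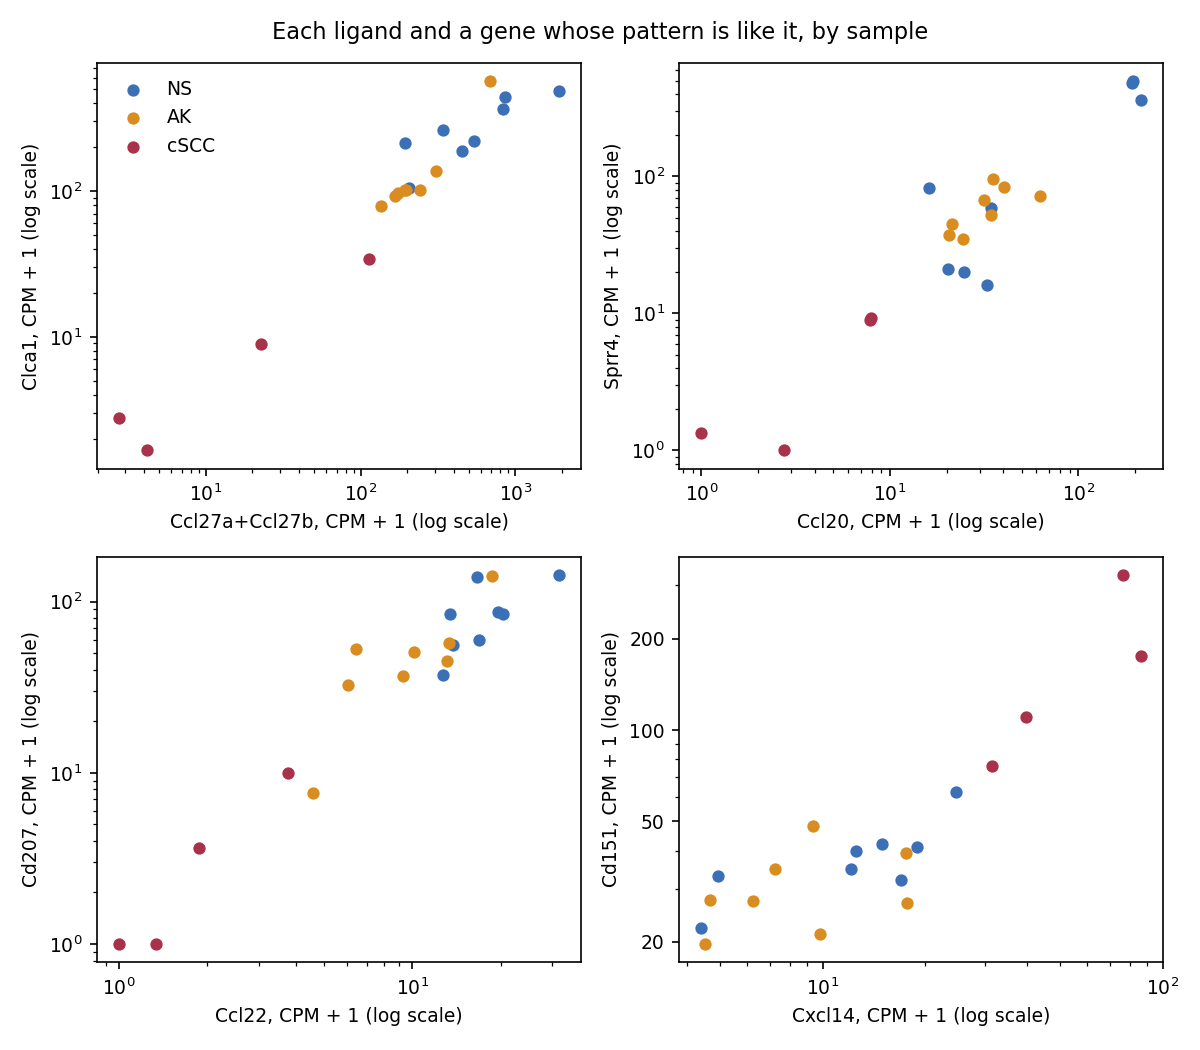
CPM plus 1 (log axes) of the Ccl27 sum with Clca1, Ccl20 with Sprr4, Ccl22 with Cd207 and Cxcl14 with Cd151, 1 point per sample, colored by group. The points rise together in each panel, with cSCC at the low end in the first 3 and at the high end for Cxcl14.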

How the data were processed

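Skin tissues of 20 samples (8 NS, 8 AK and 4 cSCC) were profiled by RNA-seq, and groups were taken from the sample labels. The authors deposited raw counts per gene symbol, without normalization, from trimmed and aligned reads. The submitters' processing notes name Trimmomatic 0.36, HISAT2 2.0.5, featureCounts 1.5.2, mm9 and hg19, whereas the paper's methods name GRCm38 and StringTie, so the counter and build are not settled, and the strand setting and the handling of reads that map to several places are not given in the sources used here. The table holds no coordinates, and those printed are from GENCODE M21 on GRCm38.

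CPM were computed with TMM factors over all 20 samples. Comparisons used the 2 groups concerned, edgeR 4.0.16 (R 4.3.3) with its quasi-likelihood test, filterByExpr and Benjamini-Hochberg adjustment, and the scripts were tested on simulated data. The standard error is the size of the log2 fold change divided by the square root of F. Alternatives were DESeq2 1.42.0, library size alone, upper quartile factors, other filters, an unadjusted p-value, a joint fit of the 20 samples, a pseudocount of 0.1 in place of 1 for correlations, and leaving out samples. The addition of Gm13306 to the Ccl27 sum, and pooled levels without single samples, were chosen after seeing the data. The 9 genes and all lists were chosen with earlier results of these data known. Named were the 9 genes, up to 10 DEGs of the related lists with the largest change in each comparison, 8 related genes in every case, up to 3 DEGs of each marker list and the 5 most alike genes, of which 1 for Ccl22 is not reported here. Python 3.11.15 and scipy 1.17.1 were used.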

Additional observations from a re-analysis of the deposited data

Results flagged for a closer look

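A single sample far from the rest of its group was found in 11 of 30 sets of values (each of the 9 genes and the Ccl27 sum in 3 groups), by Dixon's test of the gap to the nearest sample, and chance gives about 1 in 20. That rate is for normally distributed values and does not hold for skewed CPM or for counts mostly at 0. Ccr6 in cSCC, with 1 count in a single sample, had to stand out, and Ccr4 and Ccr10 in cSCC, at 0 throughout, could not. In NS replicate 6, Ccl27a was 893.55 CPM, Ccl27b 1008.5 CPM and their sum 1902 CPM. In AK replicate 10, the same were 317.85, 370.69 and 688.53 CPM. The counts of the copies cannot be separated with certainty, so each sample is taken as 1 pattern and not 3. Ccl20 was 61.8 CPM in AK replicate 12, from 49 counts in one of the smallest libraries. Ccl22 was 30.6 CPM in NS replicate 5. For the receptors, Ccr10 was 2.03 CPM in NS replicate 2 (7 counts), Ccr4 was 1.65 CPM in AK replicate 10 (22 counts) and Ccr6 was 1.14 CPM in cSCC replicate 20 (1 count).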

How the results depend on the processing

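No paired analysis was possible because the groups share no replicate numbers. In AK vs. NS the count of DEGs among all genes was 542, and 1049 with DESeq2, 9 in a joint fit of the 20 samples and 1798 with an unadjusted p-value. Of the 9 genes, 0 were called there, and 3 with DESeq2, 2 with library size alone and 4 unadjusted. Of the related genes, 5 were called, and 12, 0 and 20 with DESeq2, the joint fit and no adjustment. In cSCC vs. NS 4052 genes passed unadjusted, and 1558 were DEGs without cSCC replicates 20 and 21, 2 of them among the 9 genes. In cSCC vs. AK these counts were 4504, 1584 and 2, and 29 related genes passed unadjusted. With library size alone, DEGs were 176 higher and 481 lower in AK vs. NS (264 and 278 with TMM), 625 and 1332 in cSCC vs. NS (1414 and 926) and 1021 and 1356 in cSCC vs. AK (1931 and 1004).

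Leaving out 1 sample gave 164 to 920, 1695 to 3181 and 1787 to 3994 DEGs among all genes in AK vs. NS, cSCC vs. NS and, last, cSCC vs. AK. In that order, the 9 genes had 0 to 3, 5 to 6 and 3 to 5 calls, the related genes 1 to 10, 16 to 20 and 12 to 22, and the Ccl27 sum log2 fold changes of -1.73 to -0.91, -6.39 to -3.79 and -5.11 to -2.47. With Gm13306 in the sum, chosen after seeing the data, it was -1.34, -4.25 and -2.91. Directions turned for genes that were not called. Ccl17 in AK vs. NS ranged from -0.33 to 0.42. Ccl1 in AK vs. NS ranged from -0.029 to 0.51 and was below 0 without AK replicate 13. Ccl8 in cSCC vs. NS ranged from -0.73 to 0.36 and was 0.21, 0.15 and 0.05 without NS replicates 6, 7 and 8, 0.27 and 0.36 without cSCC replicates 19 and 21, and 0.15 without both 20 and 21. Tslp in cSCC vs. AK ranged from -1.60, without cSCC replicate 18, to 2.09. The causes were not tested. No relation of ligand and receptor passed with a pseudocount of 0.1 or library size alone. With no filter beyond 1 count the 3 receptors were tested too, and none was called.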
